A study of Rattus norvegicus with 27 samples.

Results

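The prefrontal cortex of control rats was compared with the hippocampus of the same animal group, on 3 arrays for each region, which are 6 of the 27 arrays of the study. The members were chosen by their labels alone, as the prefrontal cortex control and the hippocampus control samples. Controls were male Wistar rats of 10 weeks with a blood sugar of 7.64 mmol/l, and no injection is given for them. Tissue samples of 3 animals were pooled for each array, 9 animals make up a group, and every region was taken from the same brains. A pool is thus the unit behind each value, and the spread between animals of 1 pool cannot be seen. Streptozotocin rats, which were male Wistar rats of 10 weeks given 65 mg/kg into a vein 4 weeks earlier (blood sugar 26.34 mmol/l), and male rats of the Goto-Kakizaki strain, also of 10 weeks (13.9 mmol/l), supplied the same pair of regions on 6 further arrays each. The control striatum, also on 3 arrays, serves below only to show where a marker is high.

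The prefrontal cortex is a layered neocortex, built of excitatory neurons that project within the cortex from the upper layers and to deeper brain structures from the lower layers, with interneurons scattered among them. The hippocampus is an older, folded cortex with a single sheet of pyramidal neurons in Ammon's horn and a sheet of granule cells in the dentate gyrus, where neurons are still born in adult rats. The dissected hippocampus also lies beside white matter tracts and the choroid plexus, the tissue that secretes cerebrospinal fluid, while the cortex is covered by the meninges. Bulk RNA of a dissected piece holds all of these, and fewer cells of a type and less RNA per cell cannot be told apart in it.

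Levels are given as log2 values of a probe's processed signal, with each array's 75th percentile subtracted, so that 0 is the level of that percentile and a difference of 1 is 2-fold. Probes were compared where at least 2 of the 3 arrays of a region had them well above background. A probe is called where the adjusted p is under 0.05 and the difference at least 2-fold, and differences are prefrontal cortex minus hippocampus with their standard error (SE). Where a probe was not well above background on any array of a region, its level there is an upper limit, and the fold is given as "at least", from the lowest signal that counted as well above background. The adjusted p beside such a fold comes from the measured signals. Prefrontal cortex arrays had 72.0% to 74.3% of their probes well above background, and hippocampus arrays 72.4% to 74.3%. No slide held both regions of control rats, so that slide and region cannot be told apart in them.

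Of 30900 probes tested, 1594 were called, which is 5.16%. In the prefrontal cortex 830 of them (2.69% of the probes tested) were higher and 764 (2.47%) were lower. The pools of the regions did not overlap for 13076 probes (42.3% of those tested) and for 1577 of the 1594 called. Of the called probes, 346 differed at least 4-fold (158 higher, 188 lower in the prefrontal cortex) and 41 at least 16-fold (7 higher, 34 lower). With 1 probe for each of 12917 named genes, 429 genes (3.32%) were higher, 383 (2.97%) were lower, and the median difference over all genes was 0.02 (log2). The counts of the gene groups below are to be read against these shares. Of 189 second probes of the called genes, 179 had the same sign and 103 were called alike. A second probe of Fgb, the fibrinogen beta chain, was called the opposite way (1.10 and -2.26), and that gene was picked out after its values were seen.

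The largest increases in the prefrontal cortex were those of Ostn, which encodes the secreted peptide osteocrin, and of genes for enzymes of steroid hormone synthesis and for relaxin. Ostn had levels of -2.08, -2.20 and -2.43 in the prefrontal cortex, and -8.24, -8.18 and -6.78 in the hippocampus, where it was not well above background. It was at least 11.9-fold higher (adjusted p = 5.4e-10). Cyp11b1, the 11-beta-hydroxylase that completes corticosterone, had 1.59, 1.5 and 1.04 in the prefrontal cortex against -4.17, -3.09 and -2.83 in the hippocampus, a difference of 4.74 (SE 0.44, adjusted p = 1.0e-07). All 3 prefrontal cortex pools lay far above all 3 hippocampus pools, though the choice of the largest increases fixed that they do not overlap. Cyp11b2, the aldosterone synthase, had -1.72, -2.17 and -1.98 in the prefrontal cortex and was not well above background in the hippocampus, at least 14.5-fold higher (adjusted p = 3.4e-06). Gml, a small membrane-anchored protein of the Ly6 family, had -2.34, -2.22 and -2.78 in the prefrontal cortex and was at least 10.3-fold higher (adjusted p = 1.7e-06). Gml, Cyp11b1, Cyp11b3 and Cyp11b2 follow each other in this order on chromosome 7 in the GRCr8 gene table of RefSeq, with other entries between them. Cyp11b3, looked up after the values of its neighbours were seen, did not stand apart in the same way: it had -3.00, -3.22 and -5.03 in the prefrontal cortex and -3.88, -3.73 and -3.67 in the hippocampus, a difference of 0.01 (SE 0.54, adjusted p = 1.0).

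Since the Cyp11b genes are close relatives, their probes are shown with those of their neighbour Gml, of Ostn and of the hippocampal gene Klk8 described below. They are the 60-base probes of the array, 5′ to 3′, read from the deposited files. No capitals are used, since no part of them was marked out.
Ostn: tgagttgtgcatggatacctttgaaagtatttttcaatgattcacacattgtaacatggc
Gml: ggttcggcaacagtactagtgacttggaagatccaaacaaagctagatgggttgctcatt
Cyp11b1: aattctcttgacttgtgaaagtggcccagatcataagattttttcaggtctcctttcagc
Cyp11b3: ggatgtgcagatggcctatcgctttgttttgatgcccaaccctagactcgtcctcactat
Cyp11b2: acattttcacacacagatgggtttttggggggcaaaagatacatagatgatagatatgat
Klk8: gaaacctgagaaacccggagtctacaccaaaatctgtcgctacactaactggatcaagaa

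The longest run that the probes of Cyp11b1 and Cyp11b2 share is 6 bases, that of Cyp11b1 and Cyp11b3 5 bases, and that of Cyp11b2 and Cyp11b3 7 bases. Whether a probe also binds the transcript of another member of the family was not tested.

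Further large increases concerned a hormone, receptors, transporters and proteins better known from muscle or the immune system. Rln1, the hormone relaxin, had 1.22, 1.25 and 1.39 in the prefrontal cortex against -3.73, -3.19 and -3.43 in the hippocampus (difference 4.74, SE 0.47, adjusted p = 2.3e-07). Trim54, a RING finger protein of muscle, had 0.93, 0.30 and 0.23 against -3.31, -3.56 and -3.56, a difference of 3.96 (SE 0.39). The prefrontal cortex pools of both genes lay well apart from the hippocampus pools, though their choice fixed that the pools do not overlap. Rasgef1c, which carries a domain that activates Ras proteins, had the smallest SE of the 15 largest increases, with 2.19, 2.24 and 2.15 in the prefrontal cortex and -1.53, -1.09 and -1.24 in the hippocampus (difference 3.48, SE 0.15, adjusted p = 2.2e-12). Slc22a3, a transporter of organic cations that also carries monoamines, differed by 3.48 (SE 0.32), the metalloprotease gene Adam33 by 3.95 (SE 0.43) and Cd200r1, the receptor of myeloid cells for CD200, by 3.67 (SE 0.57). The chemokine gene Cxcl13, whose product draws B cells, rose at least 6.4-fold (adjusted p = 7.5e-09), Stat4, a transcription factor downstream of interleukin 12, at least 5.59-fold (1.6e-07), and Tnmd, a membrane protein of tendon, at least 3.27-fold (7.6e-05). The antimicrobial peptide gene Defb1 had -3.61, -3.37 and -2.20 in the prefrontal cortex against -7.88, -4.75 and -7.57 in the hippocampus (difference 3.68, SE 0.96, adjusted p = 0.010). Hippocampus pools 1 and 3 lay below the lowest signal that counted as well above background on their arrays (-5.94 and -5.65). The call of Defb1 depended on single pools: the adjusted p was 0.066 without hippocampus pool 1, 0.054 without hippocampus pool 3 and 0.055 without prefrontal cortex pool 3.

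Adra1b, the alpha-1B adrenergic receptor through which noradrenaline acts on cortical neurons, was measured by 3 probes, all of them called higher in the prefrontal cortex. The brightest had 2.57, 2.17 and 2.47 in the prefrontal cortex against -1.17, -0.97 and -1.01 in the hippocampus, a difference of 3.45 (SE 0.25, adjusted p = 2.9e-09). The other two differed by 2.18 (SE 0.29) and 1.25 (SE 0.23). The probes thus had the same direction and different sizes.

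**Figure D1:**
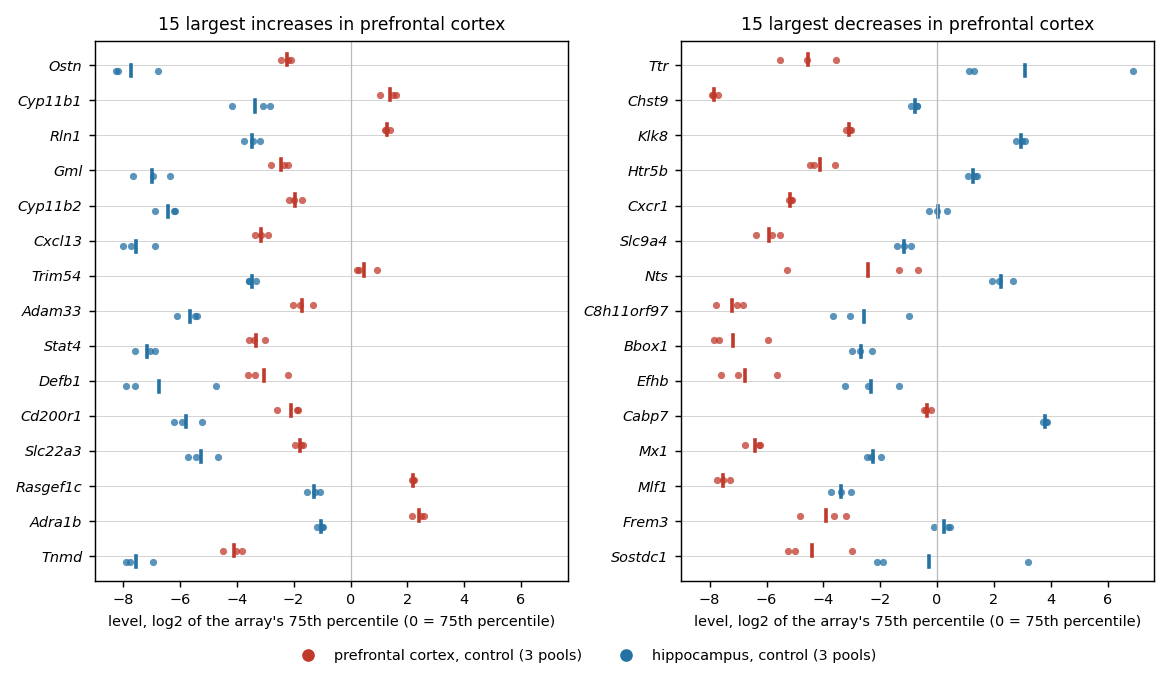
Levels of the 15 genes with the largest increases (left) and the 15 with the largest decreases (right) in the prefrontal cortex of control rats, as log2 relative to the array's 75th percentile; each point is 1 pool (red, prefrontal cortex; blue, hippocampus) and each bar the mean of 3. The pools of the regions do not overlap for any of the 30, which the choice of these genes fixed, and hippocampus pool 3 stands apart for Ttr, at 6.89.

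Among the largest decreases in the prefrontal cortex were genes with a steep difference and small spread. Chst9, a sulfotransferase that adds sulfate to N-acetylgalactosamine, was not well above background in any prefrontal cortex pool (-7.87, -7.91 and -7.72) and had -0.69, -0.72 and -0.93 in the hippocampus, at least 31.4-fold lower in the prefrontal cortex (adjusted p = 1.2e-12). Klk8, or neuropsin, an extracellular serine protease that acts at synapses, had -3.20, -3.03 and -3.06 in the prefrontal cortex and 3.08, 2.77 and 2.97 in the hippocampus, a difference of -6.04 (SE 0.52, adjusted p = 4.1e-08). The spread within a region was a small part of that difference. Htr5b, a serotonin receptor of rodents, had -3.60, -4.35 and -4.46 in the prefrontal cortex against 1.40, 1.33 and 1.07 in the hippocampus (difference -5.40, SE 0.23, adjusted p = 1.4e-12). Cabp7, a calcium-binding protein related to calmodulin, differed by -4.16 (SE 0.17, adjusted p = 6.8e-13) between pools at -0.39, -0.46 and -0.23 in the prefrontal cortex and pools at 3.86, 3.81 and 3.72 in the hippocampus. That the pools of these genes do not overlap was fixed by their choice.

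Cxcr1, a receptor for interleukin 8, differed by -5.18 (SE 0.34) and Frem3, an extracellular matrix protein, by -4.14 (SE 0.38). Slc9a4, a sodium and proton exchanger, was at least 23.2-fold lower in the prefrontal cortex (adjusted p = 4.0e-10), and Bbox1, which completes carnitine, at least 8.52-fold lower (2.0e-08). The neuropeptide gene Nts, encoding neurotensin, had -1.32, -5.29 and -0.67 in the prefrontal cortex and 2.66, 2.20 and 1.92 in the hippocampus (difference -4.69, SE 0.73, adjusted p = 7.3e-05). Its pools did not overlap, which its choice fixed, but prefrontal cortex pools 1 and 3 were far above pool 2, as they were for the striatal markers described below. In the control striatum Nts had 1.47, 1.81 and 1.29. C8h11orf97 (at least 9.03-fold lower, adjusted p = 3.8e-07), Efhb (at least 10.4-fold lower, 3.7e-07), a protein with calcium-binding EF hands, and Mlf1 (at least 5.16-fold lower, 1.5e-09) had in common that all prefrontal cortex pools were below the limit of detection.

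Mx1, a GTPase that interferon induces, was called in control rats and not in the other animals. It was not well above background in the prefrontal cortex of control rats and had -2.46, -2.31 and -1.99 in their hippocampus, at least 11.3-fold lower in the prefrontal cortex (adjusted p = 1.3e-05). In streptozotocin rats the prefrontal cortex had -6.20, -4.33 and -7.08 and the hippocampus -4.28, -4.22 and -4.49, and the difference was not called (adjusted p = 0.062). In Goto-Kakizaki rats it was not called either (adjusted p = 0.11). The change of the region difference between streptozotocin and control rats did not pass the test (2.61, adjusted p = 0.38).

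The labelled regions were checked against genes that mark them. Cux2, a transcription factor of the upper layers, had 1.80, 2.07 and 1.88 in the prefrontal cortex against -0.30, 0.07 and 0.10 in the hippocampus (difference 1.96, SE 0.21, adjusted p = 8.9e-07), and a dimmer second probe of it differed by 0.70. Lamp5, a membrane protein found in upper layer neurons and some interneurons, differed by 1.74 (SE 0.15). Prox1, a transcription factor of dentate granule cells, was not well above background in the prefrontal cortex and had -4.66, -5.03 and -5.27 in the hippocampus, at least 1.7-fold lower in the prefrontal cortex (adjusted p = 0.0050). Zbtb20, a transcription factor that specifies hippocampal neurons, had -1.35, -1.59 and -1.56 in the prefrontal cortex against 0.29, 0.29 and 0.05 in the hippocampus (difference -1.71, SE 0.23). These markers thus matched the labels. Others separated the regions little: Fezf2, a transcription factor of deep layer neurons, differed by -0.22 (SE 0.17, adjusted p = 0.46), and Wfs1, found in the CA1 field, by -0.53 (SE 0.20, adjusted p = 0.086). Tbr1 and C1ql2 had no probe matched by name and were not analysed here.

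Of 16 tested markers of upper cortical layers, 4 rose and 1 fell, with a median of 0.42. Cux2, Lamp5 and Penk, the precursor of enkephalins, which is also a striatal gene, were among those that rose. Penk had 1.86 and 3.45 in prefrontal cortex pools 2 and 3 (that of pool 1 was left out as an outlier spot) against 0.94, 0.86 and 0.66 in the hippocampus, a difference of 1.83 (SE 0.30) that was 1.04 without prefrontal cortex pool 3, where striatal markers stood highest. A second, dimmer probe of Penk differed by -0.09 (adjusted p = 0.88). The 1 that fell, Unc5d, a netrin receptor, differed by -1.13 (SE 0.28), and by -0.99 without hippocampus pool 1, when it was no longer called; a dimmer probe differed by -0.76 (adjusted p = 0.28). Of 16 markers of deep layers, 1 rose and 1 fell (median 0.15), while 2 rose and 2 fell without hippocampus pool 3, and 2 fell without prefrontal cortex pool 3. Foxp2, a transcription factor of layer 6 neurons and of the striatum, rose, with -0.10, -0.19 and 0.24 in the prefrontal cortex against -2.63, -2.24 and -2.52 in the hippocampus (difference 2.45, SE 0.23). Nr4a2, a nuclear receptor of the deepest cortical neurons, fell by 1.04 on the log2 scale (SE 0.21), and was not called without hippocampus pool 2 (-0.95) or without prefrontal cortex pool 2 (-0.96).

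Markers of the hippocampal fields were called mainly in the downward direction. Of 14 dentate gyrus markers 5 fell and 0 rose (median -0.58), and of 23 markers of Ammon's horn 9 fell and 1 rose (median -0.79), with 2 that rose when hippocampus pool 3 or prefrontal cortex pool 2 was left out. With another background correction (normexp), 2 dentate markers fell and 0 rose, and 8 of Ammon's horn fell and 1 rose. Besides Prox1, the dentate markers that fell included Dock10, a guanine nucleotide exchange factor (-2.19, SE 0.26), the adhesion molecule gene Cdh9 (-2.02, SE 0.30) and the desmosome gene Dsp (-1.89, SE 0.26). Cdh9, for example, had -2.0, -2.14 and -2.14 in the prefrontal cortex and 0.00, -0.03 and -0.19 in the hippocampus. In Ammon's horn, Cpne7, a copine that binds membranes in response to calcium, had -1.99, -2.10 and -2.10 in the prefrontal cortex and 0.48, 0.74 and 0.95 in the hippocampus (difference -2.78, SE 0.20, adjusted p = 3.5e-09). Fibcd1 (-1.85, SE 0.21), a receptor for acetylated sugars, Homer3 (-1.42, SE 0.13), a scaffold of the synapse, and Amigo2 (-1.16, SE 0.12), an adhesion protein, also fell. The marker that rose, Cpne9, another copine, differed by 1.16 (SE 0.15).

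**Figure D2:**
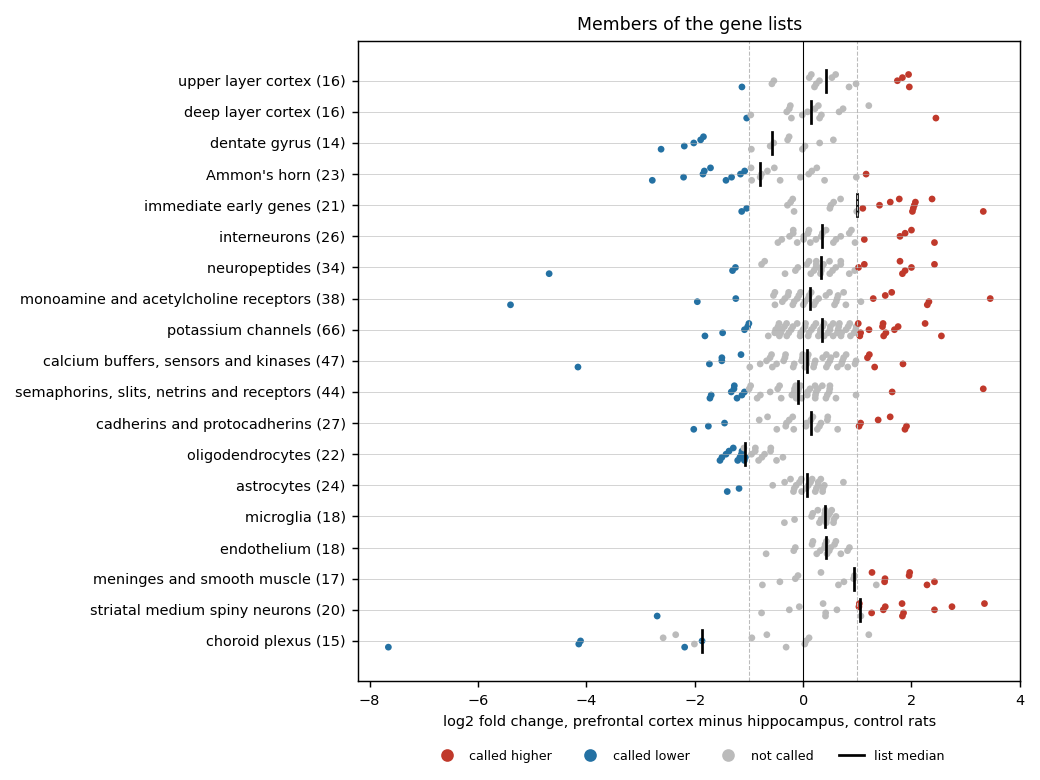
Log2 differences (prefrontal cortex minus hippocampus, control rats) of the members of 19 gene lists, 1 probe per gene, with the number of genes tested in brackets; red points were called higher, blue called lower and grey not called, the black bar is the list's median and the dashed lines mark 2-fold. All 22 oligodendrocyte genes lie below 0, and the medians of the immediate early genes and of the striatal markers are near 1.

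Of 41 transcription factors that pattern the telencephalon, 5 rose and 7 fell (median -0.18). With Foxp2, Meis2 (1.71, SE 0.15), Pou3f2 (1.91, SE 0.15) and Tshz3 (1.93, SE 0.23) were higher in the prefrontal cortex. Pou3f2, which specifies upper layer neurons, had -0.33, -0.18 and -0.31 in the prefrontal cortex against -2.30, -2.24 and -2.02 in the hippocampus. Neurod1, a transcription factor of newborn granule cells, had -0.44, -0.40 and -0.59 against 1.62, 1.5 and 1.41 (difference -1.99, SE 0.44, adjusted p = 0.0028). Of 21 genes of neurogenesis and the cell cycle 0 rose and 2 fell, Neurod1 and Igfbpl1 (-1.62, SE 0.47). Igfbpl1 was not called without hippocampus pool 3 (-1.33, adjusted p = 0.11) or prefrontal cortex pool 2 (-0.92).

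Immediate early genes, which neurons switch on within minutes of electrical activity, were called mainly in the upward direction. Of 21 tested, 10 rose and 2 fell, with a median of 0.99. Fos, the component of the AP-1 transcription factor, had 1.40, 1.21 and 1.40 in the prefrontal cortex and -1.17, -1.03 and -0.92 in the hippocampus (difference 2.38, SE 0.16, adjusted p = 1.5e-09). Egr2, a zinc finger transcription factor, had 1.58, 2.11 and 1.54 against -1.64, -1.25 and -1.86, the widest gap of the group (3.32, SE 0.31, adjusted p = 1.0e-07). Its relatives Egr1 (2.03, SE 0.17) and Egr4 (2.07, SE 0.19) differed by about as much as each other. Dusp1, a phosphatase that switches off MAP kinases, had 1.27, 0.83 and 1.11 in the prefrontal cortex and -0.98, -1.06 and -0.91 in the hippocampus (difference 2.05, SE 0.20, adjusted p = 1.8e-07). Nr4a1, an orphan nuclear receptor, had 5.01, 5.30 and 5.12 against 3.42, 3.39 and 3.29 (difference 1.77, SE 0.15). The prefrontal cortex pools of each of these genes lay above every hippocampus pool. For 1577 of all 1594 called probes the pools did not overlap.

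The other members that rose were Npas4 (2.02, SE 0.47), Btg2 (1.61, SE 0.28), Arc (1.41, SE 0.16) and Junb (1.10, SE 0.15). The relatives of Nr4a1 went the other way: Nr4a2 is given above, and Nr4a3 fell by 1.13 (SE 0.24) on its brightest probe, with -0.75 and 0.14 on its other probes, which were not called. Jun (-0.29, SE 0.18), Fosb (-0.23, SE 0.23) and Bdnf (-0.16, SE 0.20), the neurotrophin that activity induces, were not called. With prefrontal cortex pool 2 set alone against the hippocampus pools, 9 rose and 1 fell, and with hippocampus pools 1 and 2 alone beside it, 7 rose and 1 fell. Nr4a2 was the member lost without hippocampus pool 2 or prefrontal cortex pool 2, which left 1 that fell.

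**Figure D3:**
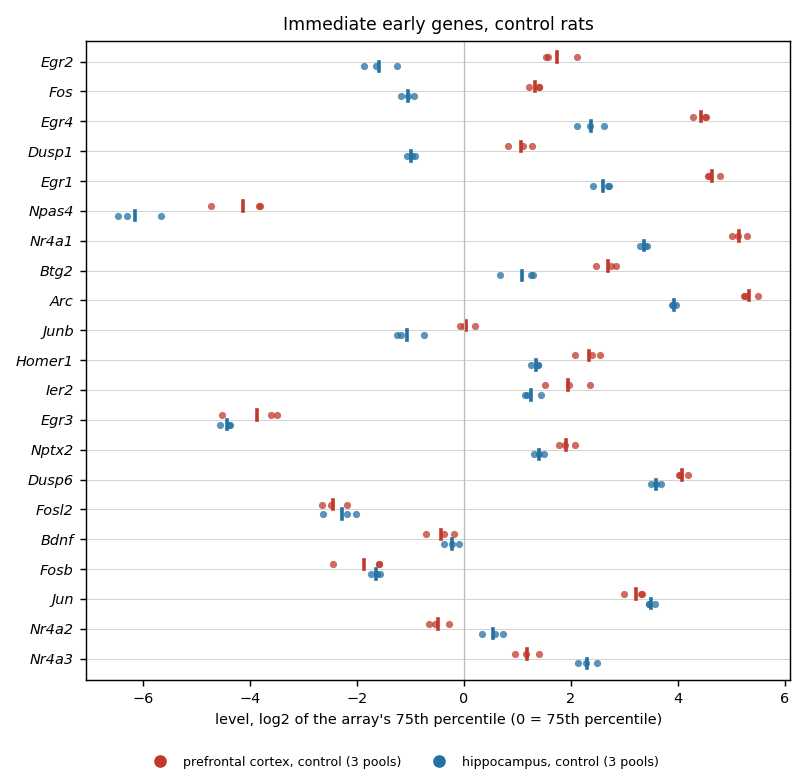
Levels of the 21 immediate early genes tested in control rats, as log2 relative to the array's 75th percentile, in the order of their difference; each point is 1 pool (red, prefrontal cortex; blue, hippocampus) and each bar the mean of 3. The gap is widest for Egr2 (3.32), 6 of the 21 differences are below 0, and of these Nr4a2 and Nr4a3 at the bottom were called.

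Activity reaches many of these genes through the factor CREB, so the promoters of the listed genes were searched for the full CREB motif, TGACGTCA, on both strands, where it reads the same. RefSeq promoters of the GRCr8 build, from 250 bases before to 50 bases after the start, were found for 17 of the 22 listed genes. The motif was in 3 of them (Btg2, Dusp1 and Ier2) and in 612 of all 33469 promoters of the same length (1.83%). A match is a description of the letters only. The promoters of Dusp1 and Btg2, which rose, are shown with the motif in capitals. It begins 124 bases before the start in Dusp1 (chr10:17184603-17184902, plus strand) and 201 bases before it in Btg2 (chr13:48087641-48087940, minus strand).
Dusp1: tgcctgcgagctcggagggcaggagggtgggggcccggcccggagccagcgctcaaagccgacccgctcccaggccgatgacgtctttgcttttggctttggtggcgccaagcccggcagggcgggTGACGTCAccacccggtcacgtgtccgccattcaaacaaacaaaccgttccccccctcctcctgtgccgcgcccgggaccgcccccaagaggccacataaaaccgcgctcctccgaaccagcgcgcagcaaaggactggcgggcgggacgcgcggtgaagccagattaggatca
Btg2: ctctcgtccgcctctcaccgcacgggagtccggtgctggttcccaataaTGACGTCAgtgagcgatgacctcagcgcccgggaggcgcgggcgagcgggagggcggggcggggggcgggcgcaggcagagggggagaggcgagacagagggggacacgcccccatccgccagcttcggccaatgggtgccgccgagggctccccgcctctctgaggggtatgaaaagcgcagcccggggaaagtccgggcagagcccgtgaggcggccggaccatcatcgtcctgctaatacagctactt

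Ier2, whose promoter also holds the motif, differed by 0.69 (SE 0.43, adjusted p = 0.33) and was not called. Fos, Egr1 and Egr2 were not among the matches in this window.

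Interneuron genes were called only in the upward direction. Of 26 tested, 5 rose and 0 fell (median 0.34), and all 5 encode peptides. Crh, corticotropin-releasing hormone, had -0.88, -0.53 and -0.87 in the prefrontal cortex against -2.68, -2.48 and -2.76 in the hippocampus (difference 1.88, SE 0.21). Cort, cortistatin, differed by 2.00 (SE 0.24), Vip, vasoactive intestinal peptide, by 1.79 (SE 0.28), and Cck, cholecystokinin, by 1.13 (SE 0.19). Tac1, the precursor of substance P, had 2.88, 1.94 and 3.57 in the prefrontal cortex against -0.01, 0.48 and 0.65 in the hippocampus (difference 2.42, SE 0.27), with prefrontal cortex pools 1 and 3 above pool 2. Calb2, or calretinin, was not called, with 1.68, 1.88 and 1.96 in the prefrontal cortex and 2.01, 2.00 and 2.06 in the hippocampus (difference -0.18, SE 0.32, adjusted p = 0.79). Over 34 neuropeptide genes 7 rose and 3 fell (median 0.34), and with Nts, Scg2, a secretogranin of the vesicles that hold peptides, fell (-1.30, SE 0.15).

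Among 13 genes of corticosteroid signalling 3 rose and 1 fell (median -0.17), and 2 fell without hippocampus pool 1. Those that rose act together on 1 peptide: Crh itself, its receptor Crhr1 (1.41, SE 0.18) and its binding protein Crhbp (1.22, SE 0.13). The 1 that fell was Nr3c2, the mineralocorticoid receptor, which binds both corticosterone and aldosterone. It had 1.15, 1.35 and 1.27 in the prefrontal cortex and 3.17, 3.06 and 3.01 in the hippocampus (difference -1.82, SE 0.11, adjusted p = 1.5e-10), and a second probe differed by -1.47. The direction was thus opposite to that of Cyp11b1 and Cyp11b2 above.

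Of 38 receptors for monoamines and acetylcholine 6 rose and 3 fell (median 0.13), and serotonin receptors went both ways. Htr2a, the receptor that excites cortical pyramidal neurons, had -0.25, -0.41 and -0.63 in the prefrontal cortex against -3.11, -2.62 and -2.52 in the hippocampus (difference 2.32, SE 0.28, adjusted p = 3.0e-06). Htr1a, an inhibitory receptor, had -4.29, -5.15 and -4.49 in the prefrontal cortex against -2.59, -2.62 and -2.87 in the hippocampus (difference -1.95, SE 0.24, adjusted p = 3.6e-06). With Htr5b, above, the prefrontal cortex thus had less of these 2 and more of Htr2a. Htr1d was at least 4.01-fold higher in the prefrontal cortex (adjusted p = 2.8e-05), and Hrh3, the histamine receptor on nerve endings, differed by 1.29 (SE 0.16).

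Genes of glutamate and GABA-A receptors were called in both directions. Of 25 glutamate receptor genes 1 rose and 2 fell (median -0.14): Grm8, a metabotropic receptor, by 1.42 (SE 0.23), Grik4, a kainate receptor subunit of CA3 neurons, by -1.32 (SE 0.17), and Gria1, an AMPA receptor subunit, by -1.21 (SE 0.16). Of 14 subunits of the GABA-A receptor 2 rose and 1 fell (median -0.05), and 1 rose without hippocampus pool 1 or without prefrontal cortex pool 1. Gabra5, the subunit of extrasynaptic receptors in hippocampal pyramidal cells, had -0.54, -0.72 and -0.70 in the prefrontal cortex against 0.73, 0.81 and 0.69 in the hippocampus (difference -1.40, SE 0.13). Gabrd, the delta subunit, differed by 1.17 (SE 0.14).

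Potassium channel genes, which set how neurons fire, rose more often than they fell. Of 66 tested, 12 rose and 5 fell (median 0.34). Kcnf1, a silent subunit that modifies other channels, had -2.59, -2.49 and -2.53 in the prefrontal cortex against -5.70, -4.59 and -4.98 in the hippocampus (difference 2.55, SE 0.23, adjusted p = 6.3e-08). Kcna5 (1.75, SE 0.18), Kcnb2 (1.69, SE 0.15), Kcnv1 (1.53, SE 0.13) and the inward rectifier Kcnj12 (1.48, SE 0.18) rose as well. Kcng2, another silent subunit, fell, with -1.72, -1.92 and -1.83 in the prefrontal cortex and 0.04, -0.05 and -0.02 in the hippocampus (difference -1.81, SE 0.15).

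Of 47 calcium buffers, sensors and kinases 4 rose and 5 fell (median 0.08). With Cabp7, Hpca, or hippocalcin, a calcium sensor named for the hippocampus, fell (-1.5, SE 0.14), with 4.29, 4.04 and 4.26 in the prefrontal cortex against 5.81, 5.61 and 5.66 in the hippocampus. Camk4, a calmodulin-dependent kinase (1.19, SE 0.12), Cabp1 (1.22, SE 0.16) and Necab3 (1.32, SE 0.19), both calcium-binding proteins, rose.

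Genes that guide axons and hold cells together were called in both directions. Of 44 semaphorins, slits, netrins and their receptors 2 rose and 8 fell (median -0.10). With normexp 0 rose and 3 fell, and with the methods' t-test (Welch) after adjustment 0 rose and 5 fell. Sema3a, a repellent semaphorin, had -3.33, -3.21 and -3.91 in the prefrontal cortex and was at least 5.03-fold higher there (adjusted p = 3.8e-06), while its receptor Nrp1 had -2.36, -2.70 and -2.53 in the prefrontal cortex against -0.86, -0.75 and -0.90 in the hippocampus (difference -1.70, SE 0.20). The ligand and its receptor thus differed in opposite directions. The netrin receptors Unc5c (-1.33, SE 0.20) and Unc5a (-1.22, SE 0.18), Sema3e (-1.27, SE 0.15) and Ntng1 (-1.28, SE 0.19), a netrin anchored to the membrane, fell. A dimmer probe of Ntng1 differed by -1.80 (adjusted p = 0.18).

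Of 19 ephrins and Eph receptors 1 rose and 2 fell (median -0.16), with 2 that rose without prefrontal cortex pool 1 or 2 and 1 that fell without hippocampus pool 1. Epha6 had -2.34, -2.57 and -2.63 in the prefrontal cortex against -0.34, -0.29 and -0.51 in the hippocampus (difference -2.13, SE 0.11, adjusted p = 1.6e-11), while Ephb6, which lacks kinase activity, differed by 1.23 (SE 0.17), and a much dimmer probe of it by 0.70 (adjusted p = 0.17). Of 27 cadherins and protocadherins 6 rose and 3 fell (median 0.14), among them Pcdh11x (1.91, SE 0.20), Cdh6 (1.61, SE 0.16) and Cdh7 (1.38, SE 0.23) upward and Cdh9 and Pcdh19 (-1.45, SE 0.10) downward. A dimmer probe of Pcdh11x differed by 1.02 (adjusted p = 0.073). Without prefrontal cortex pool 1, 3 rose and 3 fell. With these lists, as with most, single members differed by far more than the list's median.

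Of 35 Wnt ligands, receptors and antagonists 4 rose and 3 fell (median 0.12), and without prefrontal cortex pool 3, 3 rose and 5 fell. With another background correction (normexp), 1 rose and 1 fell. Wnt10a had 1.84, 1.60 and 1.60 in the prefrontal cortex against -1.05, -0.90 and -1.03 in the hippocampus (difference 2.68, SE 0.19, adjusted p = 2.9e-09). Wnt4 had -0.01, 0.27 and 0.23 in the prefrontal cortex against 2.33, 2.28 and 2.04 in the hippocampus (difference -2.05, SE 0.22, adjusted p = 6.1e-07). The antagonists also differed in direction, Sfrp4 by 1.28 (SE 0.16) and Frzb by -1.40 (SE 0.18). Of 16 genes of neurotrophins, their receptors and receptors of the GDNF family, 1 rose and 3 fell (median -0.20), and 2 rose without hippocampus pool 2 or prefrontal cortex pool 3. Gfra2, the receptor for neurturin, had 2.86, 2.94 and 2.63 in the prefrontal cortex against 0.25, 0.57 and 0.65 in the hippocampus (difference 2.32, SE 0.19), while Ret, the kinase that it signals through, differed by -1.44 (SE 0.18), and by -0.98 and -0.81 on dimmer probes that were not called. Ntf3, neurotrophin 3, fell (-2.21, SE 0.39).

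Myelin genes were lower in the prefrontal cortex throughout. Of 22 oligodendrocyte genes 11 fell and 0 rose, all 22 differences were below 0, and the median was -1.08. Mobp, a protein of compact myelin, had 2.82, 2.24 and 2.99 in the prefrontal cortex against 4.09, 4.25 and 4.31 in the hippocampus (difference -1.53, SE 0.22). Mog, on the outer surface of myelin, had 2.30, 2.52 and 2.70 against 3.95, 3.74 and 3.94 (difference -1.37, SE 0.18). Myrf, the transcription factor that drives myelination, differed by -1.42 (SE 0.18), Ermn by -1.29 (SE 0.21), Hapln2 by -1.13 (SE 0.15) and Opalin by -1.08 (SE 0.13). The summed level of the list was 192, 220 and 246 times the 75th percentile in the prefrontal cortex pools and 415, 383 and 434 times in the hippocampus pools. Between 11 and 13 genes of the list fell when any 1 pool was left out.

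Few genes of other cells of the brain parenchyma were called, to be read against 3.32% higher and 2.97% lower over all genes. Of 24 astrocyte genes 0 rose and 2 fell (median 0.08). Agt, angiotensinogen, had 3.21, 2.87 and 3.26 in the prefrontal cortex against 4.60, 4.28 and 4.65 in the hippocampus (difference -1.40, SE 0.20). Gfap, the intermediate filament of astrocytes, differed by -1.18 (SE 0.23) and, without prefrontal cortex pool 2, by -0.98, which is not a call. Of 7 markers of oligodendrocyte precursors 0 rose and 1 fell (median -0.29). Bcas1, the gene that fell, differed by -1.03, with hippocampus pool 2 left out as an outlier spot, and was no longer called without hippocampus pool 1 (-0.96) or prefrontal cortex pool 1 (-0.94) or 2 (-1.0). No gene of the 18 microglia genes (median 0.41, 16 above 0) or of the 18 endothelial genes (median 0.42, 15 above 0) was called. Trem2, a receptor of microglia, differed by 0.53 (SE 0.16, adjusted p = 0.023) and Kdr, a receptor for vascular endothelial growth factor, by 0.82 (SE 0.18, adjusted p = 0.0035), both under 2-fold.

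Some differences moved with markers of tissue from outside the labelled regions. Choroid plexus markers stood high in 1 pool: the summed level of 15 genes was 1.20, 1.25 and 1.82 in the prefrontal cortex and 3.68, 4.02 and 140 in the hippocampus, the last in pool 3. Ttr, transthyretin, which carries thyroid hormone in the cerebrospinal fluid, had -5.52, -4.56 and -3.57 in the prefrontal cortex against 1.11, 1.31 and 6.89 in the hippocampus (difference -7.65, SE 1.23). Of the 15 genes 5 fell and 0 rose (median -1.87), and without hippocampus pool 3, 2 fell and 1 rose (median -0.72). Sostdc1, an antagonist of Wnt and BMP ligands, is one of these genes, with -2.12, -1.90 and 3.21 in the hippocampus (difference -4.14, SE 1.17), and was not called without hippocampus pool 3 (-2.40), prefrontal cortex pool 1 (-3.84) or prefrontal cortex pool 2 (-3.73). Of 9 genes of the ciliated ependyma 1 rose and 4 fell (median -0.85).

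Markers of striatal medium spiny neurons were high in prefrontal cortex pools 1 and 3. Their summed level over 20 genes was 52.0, 35.2 and 74.7 in the prefrontal cortex and 32.8, 31.1 and 30.0 in the hippocampus, and 496, 630 and 465 in the control striatum. Of the 20, 11 rose and 1 fell (median 1.05). With prefrontal cortex pool 2 set alone against the hippocampus pools, 4 rose and 2 fell (median 0.04), and without prefrontal cortex pool 3, 5 rose and 2 fell. Without hippocampus pool 2 or prefrontal cortex pool 1, 7 rose and 1 fell. Adora2a, the adenosine receptor of indirect pathway neurons, had 0.26, -1.66 and 0.92 in the prefrontal cortex against -1.86, -2.08 and -2.11 in the hippocampus (difference 1.85, SE 0.37), and 0.35 (adjusted p = 0.47) with pool 2 alone. Drd1, the D1 dopamine receptor, had -3.20, -4.96 and -2.67 against -5.60, -4.68 and -5.10 (difference 1.52, SE 0.37), and was not called without prefrontal cortex pool 3 (1.05, adjusted p = 0.056). Rgs9, a regulator of G-protein signalling of the striatum, differed by 1.26 (SE 0.38), and by -0.11 with pool 2 alone. It was not called without any 1 of hippocampus pools 1 and 2 (1.23 and 1.22) and prefrontal cortex pools 1 and 3 (1.14 and 0.70). Lrrc10b went the other way (-2.69, SE 0.36).

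Meninges and smooth muscle genes rose in 7 of 17 cases and fell in 0 (median 0.95). Col1a1, a chain of type I collagen, had 1.80, 1.91 and 3.33 in the prefrontal cortex against 0.15, 0.67 and 0.32 in the hippocampus (difference 1.97, SE 0.34). Its other probes, both dimmer, differed by 0.36 (adjusted p = 0.44) and 0.53 (adjusted p = 0.28), and pool 3 was highest of the prefrontal cortex on each. Col3a1 differed by 1.96 (SE 0.27) and Aldh1a2, which makes retinoic acid in the meninges, by 2.29 (SE 0.36). The summed level of the list was 74.6, 101 and 136 in the prefrontal cortex and 43.2, 57.5 and 70.2 in the hippocampus, and without hippocampus pool 3, 10 genes rose. Without hippocampus pool 1, 1 gene fell. Of 7 blood genes 3 rose and 0 fell (median 0.81), and 1 rose when hippocampus pool 2, hippocampus pool 3 or prefrontal cortex pool 3 was left out. Ahsp, a chaperone of alpha globin, differed by 1.27 (SE 0.25), and Hbb, beta globin, had -0.15, 0.32 and 0.49 in the prefrontal cortex against -0.62, -0.57 and -0.57 in the hippocampus (difference 0.81, SE 0.27, adjusted p = 0.048), under 2-fold. Of 10 markers of the thalamus and other diencephalon 2 rose and 2 fell (median 0.16), with 1 that fell without prefrontal cortex pool 3 or any 1 of the hippocampus pools, and Slc17a6, the glutamate transporter of thalamic neurons, was not called (-0.40, SE 0.42, adjusted p = 0.62). The part of these tissues in other genes' differences was not tested.

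**Figure D4:**
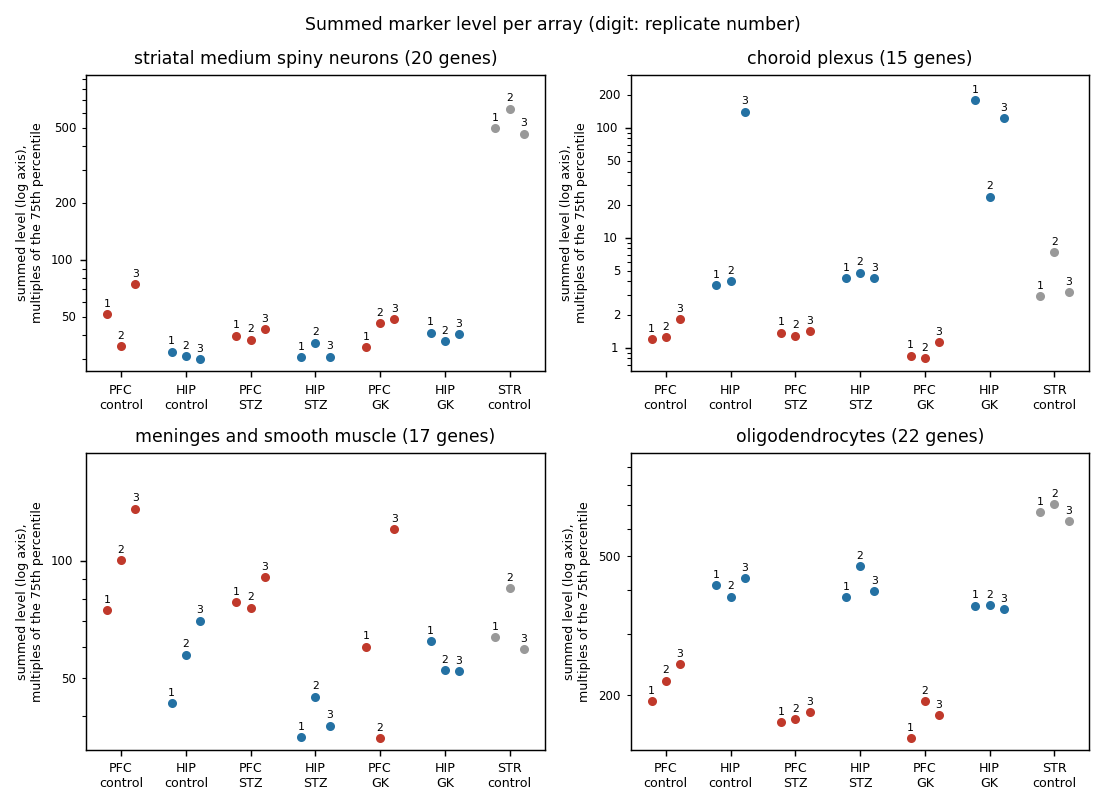
Summed level of 4 marker lists on each array, as multiples of the array's 75th percentile on a log axis, for the prefrontal cortex (PFC), hippocampus (HIP) and striatum (STR) of control, streptozotocin (STZ) and Goto-Kakizaki (GK) rats; each point is 1 array and the digit its replicate number. Prefrontal cortex control pools 1 and 3 (52.0 and 74.7) exceed pool 2 (35.2) for striatal markers, and hippocampus control pool 3 (140) exceeds pools 1 and 2 for choroid plexus markers.

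The comparison was repeated with the doubted pools set aside. With prefrontal cortex pool 2 alone against all hippocampus pools, 1484 probes were called (760 higher, 724 lower), of which 1206 were among the 1594, or 75.7% of them. With hippocampus pools 1 and 2 alone beside it, 1425 were called, and 1146 were among the 1594. A lone pool has no spread of its own, so these fits lend it that of the other groups.

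The same regions of streptozotocin and Goto-Kakizaki rats gave values on arrays that the control comparison did not use, apart from the shared estimate of the spread. In streptozotocin rats, where each slide held 1 array of each region, 1984 of 30308 probes were called (6.55%). With 1 probe per gene, 3.67% of the genes were higher and 3.8% lower in their prefrontal cortex. In Goto-Kakizaki rats 1904 of 30331 were called (6.28%), with 3.56% of the genes higher and 3.4% lower. Of the 1594 probes called in control rats, 1535 were tested in streptozotocin and 1527 in Goto-Kakizaki rats. In streptozotocin rats 1162 were called alike (72.9% of the control list, untested probes included, and 58.6% of the streptozotocin list). In Goto-Kakizaki rats 1054 were called alike (66.1% and 55.4% in the same way). No probe was called the opposite way in streptozotocin rats and 2 were in Goto-Kakizaki rats. The 905 probes called alike in all 3 animal groups are 3.07% of the 29477 tested in all of them. The median ratio of the log2 difference to that in control rats was 0.98 in streptozotocin and 0.90 in Goto-Kakizaki rats, over the probes called in control rats, which favours larger values in the group used to choose them. Of the 1594 probes, 281 were called in neither of the other animal groups, a count that includes any probe not tested there.

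**Figure D5:**
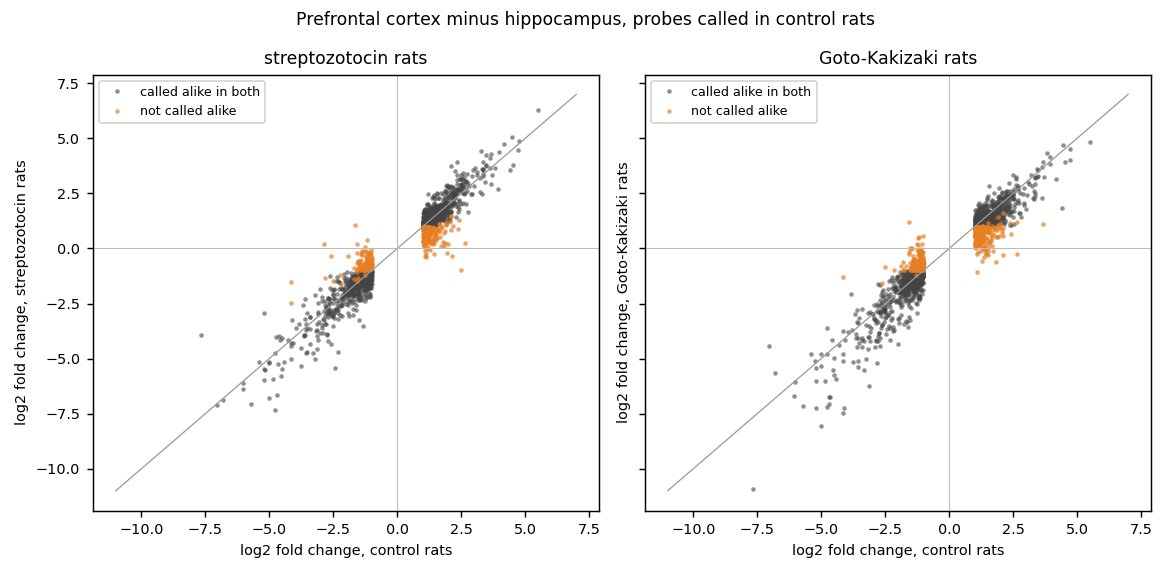
Log2 difference, prefrontal cortex minus hippocampus, in streptozotocin (left) and Goto-Kakizaki rats (right) against that in control rats, for the probes called in control rats; grey points were called alike in both, orange points were not, and the line marks equal values. Only probes also tested in the other animals are drawn, 1535 on the left and 1527 on the right, of which 1162 and 1054 are grey.

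The gene groups above were counted in the other animals as well. Myelin genes fell in 15 of 22 cases in streptozotocin rats (median -1.37) and in 11 of 22 in Goto-Kakizaki rats (-0.93), against 11 of 22 in control rats (-1.08). Immediate early genes rose in 12 and 11 of 21 (medians 1.19 and 1.04), against 10 of 21 in control rats, and 2 fell in each animal group. Fos, for example, had 1.34, 1.48 and 1.24 in the prefrontal cortex of streptozotocin rats against -0.85, -0.33 and -0.49 in their hippocampus (difference 1.91), and differed by 1.51 in Goto-Kakizaki rats. Ammon's horn markers fell in 10 and 7 of 23, and 0 and 2 rose. Dentate markers fell in 5 of 14 and 4 of 13, and 0 and 1 rose. Potassium channels rose in 15 and 18 of 66, and 2 fell in each. Striatal markers rose in 3 of 19 and fell in 2 of 19 in both, with medians of 0.21 and 0.28. Their summed level in the prefrontal cortex of streptozotocin rats was 39.9, 37.9 and 43.1. Choroid plexus markers fell in 13 of 17 cases in Goto-Kakizaki rats (median -3.03), where the summed level of the 15 genes given above was 0.847, 0.797 and 1.12 in the prefrontal cortex and 179, 23.7 and 122 in the hippocampus. In streptozotocin rats 2 of 14 rose and 3 fell (median -0.59), with 1.37, 1.29 and 1.41 in the prefrontal cortex and 4.31, 4.81 and 4.32 in the hippocampus. Meninges and smooth muscle genes rose in 7 of 17 cases in streptozotocin rats (median 0.90), and 5 rose and 1 fell in Goto-Kakizaki rats (median 0.18). The part of these tissues in the other counts was not tested. Klk8 differed by -6.12 and -6.08, Ostn was called in both, and Cyp11b1 differed by 4.89 and 4.51.

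Whether the region difference itself differed between streptozotocin and control rats was tested for 31241 probes, and none passed (0, that is 0%; 2147 at an unadjusted p under 0.05, and 107 called with array weights). Leaving out prefrontal cortex control pool 2 gave 20 calls, and leaving out prefrontal cortex control pool 3 or hippocampus control pool 3 gave 1 each.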

How the data were processed

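Gene expression was measured in RNA of pooled rat brain samples on 1-colour Agilent 60-base arrays. The authors labelled the RNA with Cy3 and extracted the signals with Agilent Feature Extraction 9.1. Per the file headers, the deposited processed signal is an intensity after background subtraction and correction of trends across the array, and arrays were not scaled to each other; the values of the series table that the authors deposited are the same intensities. The raw mean and local background intensities that the authors deposited were used for 1 alternative. The number of arrays limits the precision.

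Control spots and outlier spots were left out, and the log2 of each array's 75th percentile was subtracted. With limma 3.58.1 (R 4.3.3, with version 1.17.8 of data.table), 1 mean was fitted for each of 9 groups over 27 arrays, leaving 18 residual degrees of freedom, with empirical Bayes and Benjamini-Hochberg adjustment over the probes tested in a comparison. Tables and figures were made with Python 3.11.15, numpy 2.4.6, pandas 2.3.3 and matplotlib 3.10.9. In simulated data for control rats (30903 probes), 200 probes were changed, some by a log2 difference of 1.5 and the rest by 2.5. The fit recovered 82% of the former and 96% of the latter. The simulated noise had the same spread in all groups for a probe. In the data the median standard deviation ran from 0.093 (hippocampus, Goto-Kakizaki) to 0.294 (striatum, Goto-Kakizaki). Recovery with unequal spread was not tested. Arrays of a group are pools of different animals of that group.

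Of 41012 probes, 20042 matched a gene of the GRCr8 RefSeq annotation (by accession, symbol or synonym). Named genes were the 15 largest increases and decreases in control rats among called probes with a symbol and regions that do not overlap, and in each of 31 gene lists up to 6 called members with the smallest p (2 members where none was called), and any member of the region and other-tissue lists. The brightest probe stands for a gene. Immediate early genes outside this rule were named after their values were seen, to account for the 12 calls. The members and lists were chosen with earlier results of these data known.

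Equal replicate numbers paired the regions in streptozotocin rats, where they share slides (correlations of deviations 0.527, 0.325 and 0.718), and not in control (0.021, -0.028 and 0.071) or Goto-Kakizaki rats (0.066, -0.077 and 0.007). Whether pools of 1 number come from the same animals is not stated. Alternatives were other scalings (50th percentile, quantile), normexp with an offset of 50, the value table, other filters, keeping outlier spots, narrower fits, array weights, blocks for replicate number and slide, no fold threshold, the methods' t-test (Welch) and leaving out each pool. Chosen after seeing the data were slide 3 alone in Goto-Kakizaki rats and the fits with prefrontal cortex control pool 2 alone, with and without hippocampus control pool 3. Some genes that the rule would name are not reported here.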

Additional observations from a re-analysis of the deposited data

Results flagged for a closer look

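Calb2 and Hbb had region differences of opposite direction in control and streptozotocin rats, with pools of the regions that did not overlap in either. They were picked for this among the named genes. In control rats the pools did not overlap for 42.3% of all probes tested. The difference was not called in either animal group for either gene. The prefrontal cortex minus hippocampus difference of Calb2 was 0.44 in streptozotocin rats and -0.18 in control rats, 0.62 apart (interaction in limma, adjusted p = 0.88). That of Hbb was -0.45 in streptozotocin rats and 0.81 in control rats, -1.25 apart (interaction in limma, adjusted p = 0.385). Neither passed the adjusted test.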

How the results depend on the processing

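The counts moved by over 1.5 times with normexp, the fold threshold and the test. Normexp, which changes the starting signal, the background correction and the offset together, gave 749 calls in control rats against 1594, 742 of them among the 1594, with 936 in streptozotocin rats, 887 in Goto-Kakizaki rats and 429 called alike in all 3. Without a fold threshold the counts were 4934, 5532, 6482 and 2595 in the same order, and with the methods' t-test (Welch) after adjustment, run on 3 pools a region, 667, 1079, 826 and 224. The other alternatives gave 1425 to 1734 calls in control rats, and leaving out 1 pool gave 1471 to 1602. Another scaling moved the median of all probes by at most 0.03 (log2). For the region difference between streptozotocin and control rats, array weights gave 107 calls, prefrontal cortex control pool 2 alone gave 1, and leaving out 1 pool gave 0 to 20; the other alternatives gave 0. The methods' t-test and the fit of 1 animal group alone are not defined for it.

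The replicate block gave 1619 calls in control, 2008 in streptozotocin and 1927 in Goto-Kakizaki rats, 915 alike in all 3 and 0 for the region difference between animal groups, and it changed the call of none of the 121 called genes that the rule named above. Slide 3 alone gave 1443 calls in Goto-Kakizaki rats. Of those 121 genes, 27 were not called with normexp, many of them dim (such as Prox1, Sema3a and Gml), and 42 with the adjusted t-test of the methods, Cyp11b1 and Ostn among them. Rgs9 turned to -0.11 with prefrontal cortex pool 2 alone and to -0.021 with hippocampus pools 1 and 2 alone beside it. The cause of these changes was not tested. A list's median near 0 has no settled sign: that of the astrocyte genes was -0.04 with quantile normalization. About 1 in 4 probes on an array were not well above background. A bound stands in only for the printed fold of a probe not well above background on any array of a region. The fits and their adjusted p used the measured signals, also those below that limit.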
